A study of Mus musculus with 2 samples.

Results

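The miR-30 family of the mouse was described in hippocampus through its 6 genes, Mir30a, Mir30b, Mir30c-1, Mir30c-2, Mir30d and Mir30e, which were chosen by gene symbol among the 2202 microRNA (miRNA) genes of the count tables. The tables come from small RNA sequencing of wild-type C57BL/6 mice (strain B6NCrl) aged 6 months, with no treatment named in the labels. The only group holds 2 libraries, numbered as biological replicates 1 and 2, which carry the same donor identifier. The labels call the tissue a layer of the hippocampus without naming the layer, describe it as male in one field and give sex as not collected in another. Separate animals are not stated, so the spread between the libraries may be technical, and no conditions could be compared. All 6 genes reached 10 CPM in both libraries, as did 302 genes in all. CPM is a gene's count as parts per 1e6 of the library's sum over miRNA genes.

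A miRNA is cut from a hairpin precursor as a short RNA from its 5′ arm, its 3′ arm or both, and it guides the Argonaute protein to messenger RNAs. Pairing runs mainly through the seed, bases 2 to 8, so miRNAs with one seed are grouped as a family. The miR-30 genes lie in the genome as 3 pairs, and members of the family are known for repressing the autophagy gene Becn1 and, in neurons, the neurotrophin gene Bdnf. The counts here are per hairpin gene and do not separate the arms.

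Mature sequences were matched by symbol in RefSeq (GRCm38.p6) for 4 of the 6 genes, Mir30a, Mir30c-1, Mir30c-2 and Mir30e, while Mir30b and Mir30d had no entry. The 5′ arms are shown because their common seed, in capitals, defines the family, and because Mir384, a gene on chromosome X that does not carry the family name, holds the same seed.
miR-30a-5p: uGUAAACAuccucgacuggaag
miR-30e-5p: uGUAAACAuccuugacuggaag
miR-30c-5p: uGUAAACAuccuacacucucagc
miR-384-5p: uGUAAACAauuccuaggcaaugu

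The first 12 bases are common to the 5′ arms of Mir30a, Mir30c-1, Mir30c-2 and Mir30e, and miR-384-5p shares the first 8 of them. Between miR-30a-5p and miR-30e-5p the only difference is C13U, with positions counted from 1 at the 5′ end. Of 1738 mature entries in the RefSeq table, 5 (0.288%) hold GUAAACA at bases 2 to 8, and all 5 are the arms named here, with miR-30c-5p entered once for each of its genes. The 3′ arms fall into 2 further seed groups and are shown because they tell the miR-30c genes apart.
miR-30a-3p: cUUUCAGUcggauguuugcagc
miR-30e-3p: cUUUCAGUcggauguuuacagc
miR-30c-1-3p: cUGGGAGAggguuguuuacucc
miR-30c-2-3p: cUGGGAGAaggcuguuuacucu

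The seed UUUCAGU stands in 2 entries of the table, those of Mir30a and Mir30e, which differ by G18A. The seed UGGGAGA stands in 3 entries, those of Mir30c-1 and Mir30c-2 and the 5′ arm of Mir6958. From miR-30c-1-3p to miR-30c-2-3p the differences are G9A, U12C and C22U. Every 5′ arm of the 4 genes begins with U and every 3′ arm with C.

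The hairpins of Mir30c-1 and Mir30c-2 are printed because the stretch they share limits what their counts can hold. Capitals mark that stretch of 28 bases, which contains the whole of miR-30c-5p.
Mir30c-1 (chr4:120769534-120769622, minus strand): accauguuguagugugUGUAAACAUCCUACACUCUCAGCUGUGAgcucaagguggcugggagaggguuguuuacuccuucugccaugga
Mir30c-2 (chr1:23291701-23291784, plus strand): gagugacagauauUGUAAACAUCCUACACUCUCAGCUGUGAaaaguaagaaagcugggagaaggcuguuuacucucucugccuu

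A read that lies wholly inside this stretch matches both loci, and the tables count a read aligned to several places in no gene. The counts of Mir30c-1 and Mir30c-2 therefore cover reads with bases outside the capitals, such as those of the 3′ arms, and the miR-30c-5p sequence as printed is not measured by them. For Mir30a and Mir30e the longest stretch shared by their hairpins is 18 bases, shorter than either mature arm of 22 bases. Of the 22-base windows along the Mir30a and Mir30e hairpins, 0 of 50 and 0 of 71 stand in another hairpin of the table, against 7 of 68 for Mir30c-1 and 7 of 63 for Mir30c-2. Copies outside annotated hairpins were not searched.

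The genes differ in their genomic setting (mm10, GENCODE M21). Mir30d (ENSMUSG00000065437.1, chromosome 15, 68341208 to 68341289, minus strand) lies within an exon of the long noncoding RNA gene Gm20732, and 9 of its bases overlap Gm37296. Mir30b (ENSMUSG00000065476.2, chromosome 15, 68337415 to 68337510) follows 3697 bases downstream on the same strand, with 16 bases inside an exon of Gm26621. Mir30e (ENSMUSG00000065409.1, chromosome 4, 120772606 to 120772697, minus strand) and Mir30c-1 (ENSMUSG00000065490.1), 2983 bases downstream of it, share an intron of Nfyc, which encodes a subunit of the CCAAT-binding factor NF-Y. That holds for each of the 6 Nfyc transcripts that span both genes. Mir30a (ENSMUSG00000065405.3, chromosome 1, 23272269 to 23272339, plus strand) overlaps no other annotated gene. Mir30c-2 (ENSMUSG00000065567.1) lies 19361 bases downstream of Mir30a, within an exon of the long noncoding RNA gene Gm27028.

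Mir30d was the most abundant of the 6 genes by counted reads. It had 48871 counts in replicate 1 and 50579 in replicate 2, or 11507 and 10032 CPM, and ranked 17 and 20 among all miRNA genes. Mir30a, the source of miR-30a, came next with 18063 and 18855 counts, or 4253 and 3740 CPM. Both genes stood slightly higher in replicate 1. Mir30e had 6183 and 9073 counts, or 1456 and 1800 CPM, and was higher in replicate 2, where its rank moved from 80 to 65.

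The other 3 genes were lower by a wide margin. Mir30c-2 had 1159 and 1581 counts (273 and 314 CPM), and Mir30c-1 had 651 and 709 counts (153 and 141 CPM). Mir30b was lowest, with 492 and 449 counts (116 and 89.1 CPM). No member had a count of 0, and 3 counts, the limit that 0 allows, correspond to 0.706 and 0.595 CPM. The hairpins span 71 to 96 bases and a read covers about 1 mature arm, so levels are compared per gene without scaling to length.

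As mean ± SD over n = 2 libraries, the levels ran from 10769.7 ± 1043 CPM for Mir30d through 3996 ± 363 for Mir30a, 1628 ± 243 for Mir30e, 293 ± 28.8 for Mir30c-2 and 147 ± 8.95 for Mir30c-1 to 102 ± 18.9 for Mir30b. The order was the same in both libraries, and no adjacent genes in it overlapped. The smallest step was from Mir30c-1, with 141 CPM as its lower value, to Mir30b, with 116 CPM as its higher value. Mir30d exceeded Mir30a 2.71-fold and 2.68-fold in replicates 1 and 2, a ratio that hardly moved between libraries, whereas Mir30a exceeded Mir30e 2.92-fold and 2.08-fold.

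**Figure D1:**
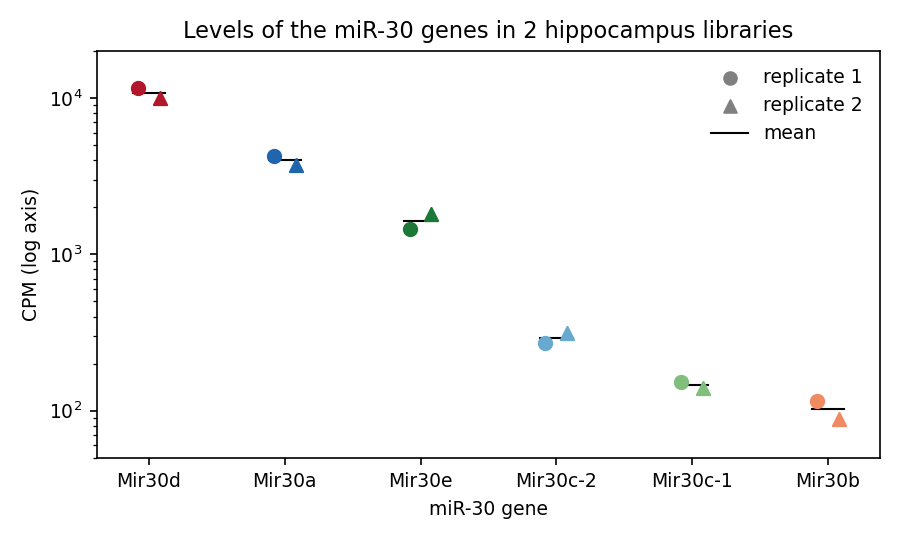
CPM of each miR-30 gene (y axis, logarithmic) in replicate 1 (circle) and replicate 2 (triangle), with the mean as a line. Mir30d, Mir30a and Mir30e stand at 1456 CPM or more in each library and the other 3 genes at 314 CPM or less.

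Together the 6 genes held 75419 counts in replicate 1, or 1.78% of reads on miRNA genes (exact 95% binomial interval 1.76 to 1.79%). In replicate 2 they held 81246 counts, or 1.61% (1.60 to 1.62%). The mean was 1.69% ± 0.116 (SD, n = 2). Intervals cover only the counting error of reads within a library and not the spread between libraries. PCR copies also cannot be told from molecules. Within the family sum, Mir30d made up 64.8% and 62.3%, Mir30a 24.0% and 23.2%, and Mir30e 8.20% and 11.2%. The 3 low genes together gave the small remainder, with Mir30c-2 at 1.54% and 1.95%, Mir30c-1 at 0.863% and 0.873%, and Mir30b at 0.652% and 0.553%.

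In each pair the gene that lies upstream on the transcribed strand held nearly all counted reads. Of the counts of its pair, Mir30d made up 99.0% (98.9 to 99.1% as the exact 95% interval) and 99.1% (99.0 to 99.2%) in replicates 1 and 2, so Mir30d was 99.3-fold and 113-fold above Mir30b. Mir30a made up 94.0% (93.6 to 94.3%) and 92.3% (91.9 to 92.6%) of its pair with Mir30c-2. Mir30e made up 90.5% (89.8 to 91.2%) and 92.8% (92.2 to 93.3%) of its pair with Mir30c-1. The intervals of the libraries overlap for Mir30d and Mir30b and do not overlap for the other pairs. In both of those pairs the lower gene is a miR-30c gene, whose count lacks reads inside the shared stretch. For Mir30d and Mir30b, which had no RefSeq entry, stretches shared with other hairpins were not searched. The shares of all 3 pairs thus compare counted reads and not amounts of mature miRNA.

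Unequal counts are common among neighbouring miRNA genes. Of 114 neighbours on one strand within 10 kb, both with at least 10 counts over the libraries, the median fold between the higher and the lower mean CPM was 8.41. By mean CPM, Mir30d stood 105-fold above Mir30b, and 9 of the 114 neighbours had a larger fold. In some of those 9 the lower gene had few counts, such as Mir544 (1 and 17) and Mir96 (7 and 12). In others, such as Mirlet7f-1 and Mir29b-1, the lower gene carries a mature arm that stands in another hairpin, so reads inside it are not counted. Mir30e over Mir30c-1 stood at 11.1-fold and Mir30a over Mir30c-2, which lie further apart than 10 kb, at 13.6-fold. The higher gene was the upstream one in 61 of the 114 neighbours (53.5%). Chromosome 12 holds 48 of the 114, and genes of one cluster enter more than 1 such comparison.

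Levels in other families counted from several loci are set beside the miR-30c genes. In 32 genes of let-7, miR-26, miR-29, miR-30, miR-181, miR-103 and miR-107 with a RefSeq entry, 18 carry a mature arm that stands in full in another hairpin and 14 do not. The median level was 155 CPM for the former and 5414 CPM for the latter. Mir30b (102 CPM) and Mir30d (10769.7 CPM) had no entry and are not among the 32 genes. Mir30b was lower than both miR-30c genes, and whether it shares an arm was not searched. Among the 4 miR-30 genes with an entry, Mir30c-1 and Mir30c-2 (147 and 293 CPM) lay below Mir30a and Mir30e (3996 and 1628 CPM). The same order without overlap was seen in miR-26, miR-29 and the miR-103 and miR-107 genes. In miR-181 the order was mixed, since Mir181b-2, which shares its 5′ arm, had the highest level (1688 CPM), and in let-7 Mirlet7f-2 stood above Mir98 in replicate 1 (2323 against 2050 CPM) and just below it in replicate 2 (1466 against 1486 CPM). These are genes of 1 tissue and not replicates, and no test was made. Reads aligned to several places made up 43.8% and 45.7% of all reads in replicates 1 and 2, and the part of them that came from miR-30c-5p was not tested.

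**Figure D2:**
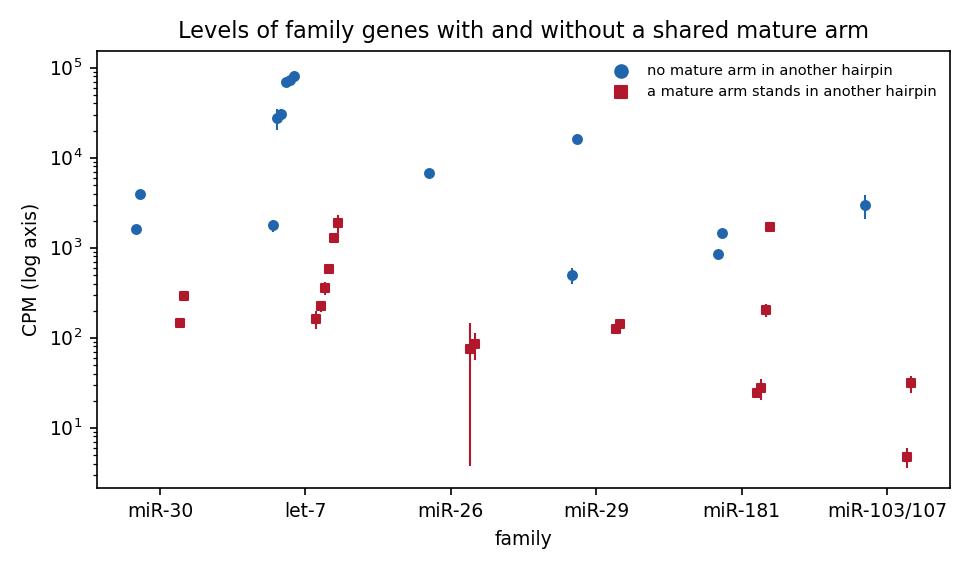
Mean CPM (y axis, logarithmic; vertical line, range of the 2 libraries) of genes in 6 families, split by whether a mature arm stands in full in another hairpin of the RefSeq table (squares) or not (circles). Mir30c-1 and Mir30c-2 are the squares of the miR-30 column, at 147 and 293 CPM. Mir30b and Mir30d, which had no RefSeq entry, are not shown.

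The spread of counts over the miR-30 genes was set beside that of other families, without a test. The leading miR-30 gene held 64.8% and 62.3% of the family's counts. Mir29a held 95.7% and 95.2% in miR-29, Mir26b 96.6% and 99.1% in miR-26, and Mir181b-2 39.9% and 39.3% in miR-181. In let-7 the leader Mirlet7b held 23.5% and 32.3%, and Mir107 held 98.9% and 98.7% of miR-103 and miR-107. In each of these families some genes carry a mature arm that stands in another hairpin. Reads wholly inside such an arm are in no gene's count. The shares therefore compare counted reads and not amounts of mature miRNA. The miR-30 sum stood above that of miR-29 in replicate 1 (1.78% against 1.51% of counted reads) and below it in replicate 2 (1.61% against 1.84%).

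Genes that share a miR-30 seed were measured in the same way. Mir384 (ENSMUSG00000065499.1, chromosome X, 105344282 to 105344369) had 656 and 566 counts, or 154 and 112 CPM in replicates 1 and 2. By counted reads Mir384 stood at the level of Mir30c-1 and Mir30b, and its range overlapped both. The arm miR-384-5p stands in no other hairpin of the RefSeq table, whereas the Mir30c-1 count does not measure miR-30c-5p. The counts of Mir384 and Mir30c-1 thus cover unlike reads. Mir6958, which shares the seed of the miR-30c 3′ arms, had 18 and 38 counts (4.24 and 7.54 CPM).

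Mir30f is annotated on the strand opposite Mir30e, at the same 92 bases of chromosome 4. Its mature sequence is shown because it carries the family heptamer, in capitals, at its bases 1 to 7 and not at the seed position.
miR-30f: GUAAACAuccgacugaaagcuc

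The 22 bases of miR-30f overlap miR-30e-3p by 19 bases on the other strand. Mir30f had 0 counts in both libraries, which allows up to 0.706 and 0.595 CPM. In the column of counts taken without regard to strand both Mir30e and Mir30f stand at 0, so that column gives no level for Mir30e.

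Differences between the libraries were tested with an exact two-sided binomial test per gene, adjusted by Benjamini-Hochberg over all 522 genes with at least 10 counts. The test compares the reads of 2 libraries and not conditions. Of all genes tested, 51.0% passed at 0.05, with 28.2% higher and 22.8% lower in replicate 2. Of the miR-30 genes 5 of 6 passed, 2 higher and 3 lower. These shares are not matched for counts, and genes with few counts pass less readily. All 6 miR-30 genes reached a mean of 100 counts, as did 276 of the 522 genes tested. A log2 ratio sets replicate 2 over replicate 1 after 0.5 is added to each count.

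Mir30e rose most, with a log2 ratio of 0.31 (exact 95% interval 0.26 to 0.35, exact adjusted p = 1.98e-37). Mir30c-2 rose as well (log2 ratio 0.20, interval 0.09 to 0.31, exact adjusted p = 0.000856). Mir30d fell by 0.20 on the log2 scale (interval −0.22 to −0.18, exact adjusted p = 1.75e-102) and Mir30a fell by 0.19 (interval −0.22 to −0.16, exact adjusted p = 3.2e-34). Mir30b fell by 0.38 (interval −0.57 to −0.19, exact adjusted p = 0.000153). Mir30c-1 did not pass (log2 ratio −0.12, interval −0.28 to 0.03, exact adjusted p = 0.184). Of the genes that share a seed with the family, Mir384 fell by 0.46 (interval −0.63 to −0.30, exact adjusted p = 9.42e-08). Mir6958 did not pass (log2 ratio 0.81, interval −0.01 to 1.73, exact adjusted p = 0.081).

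Scaling decided the calls of the miR-30c genes. With TMM factors all 6 miR-30 genes passed, beside 258 of all 522 genes tested (123 higher and 135 lower). Mir30c-1 passed there at −0.20 (exact adjusted p = 0.0261). With DESeq2 size factors 257 of the 522 genes passed (122 higher and 135 lower). Under that scaling Mir30c-1 passed at −0.20 (exact adjusted p = 0.0243) and Mir30c-2 did not, at 0.12 (exact adjusted p = 0.0519).

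These differences were small beside those of other genes. The median absolute log2 ratio was 0.20 over the 6 miR-30 genes, 0.46 over all 522 genes tested and 0.36 over the 276 genes whose mean count reached 100. Mir30b, the furthest of the 6 from 0, was exceeded by 131 of those 276 genes. Beyond counting error, edgeR put the coefficient of variation between the libraries at 0.329, from 422 genes.

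**Figure D3:**
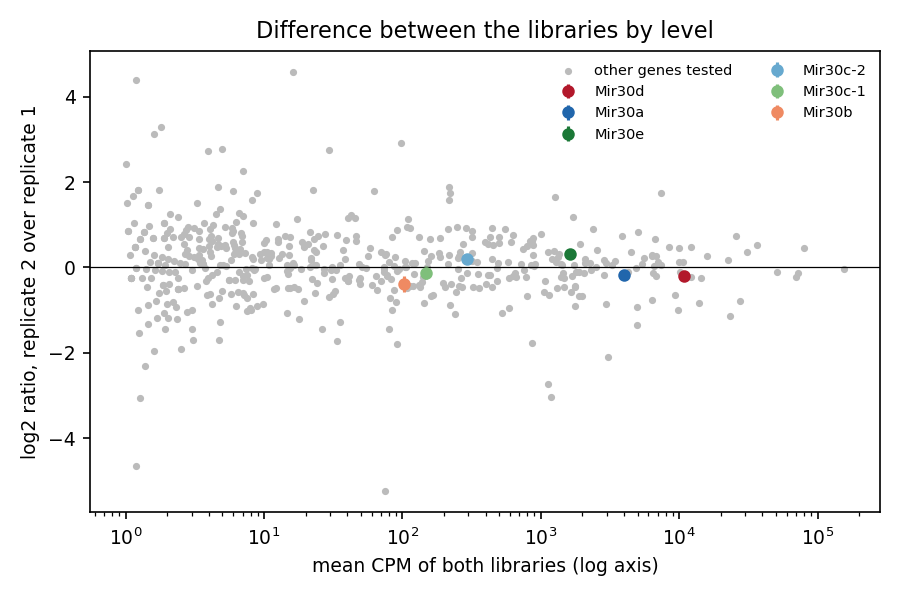
Log2 ratio of replicate 2 over replicate 1 (y axis) against mean CPM (x axis, logarithmic) for all 522 genes tested, with the miR-30 genes in colour and their exact 95% intervals as bars, mostly hidden by the points. The coloured points lie between −0.38 and 0.31.

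Genes of one pair did not always move the same way. Mir30d and Mir30b were both lower in replicate 2, and their log2 ratios differed by 0.18. Mir30e rose while Mir30c-1 stood at −0.12 (interval −0.28 to 0.03), a difference of 0.43 within 1 intron of Nfyc. Mir30a fell while Mir30c-2 rose, a difference of 0.39. In both of these pairs the count of the miR-30c gene lacks reads inside the shared stretch, so the differences compare unlike reads of the hairpins. Over the 114 neighbours within 10 kb the median difference was 0.45, and 66 (57.9%) had log2 ratios of the same sign. Without chromosome 12, which holds no miR-30 gene, 45 of 66 neighbours (68.2%) had the same sign, with a median difference of 0.47. With neighbours up to 50 kb apart, which takes in Mir30a and Mir30c-2, the median difference was 0.47 over 129. Both medians take in genes with as few as 10 counts over the libraries and are not matched for counts to the miR-30 pairs.

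**Figure D4:**
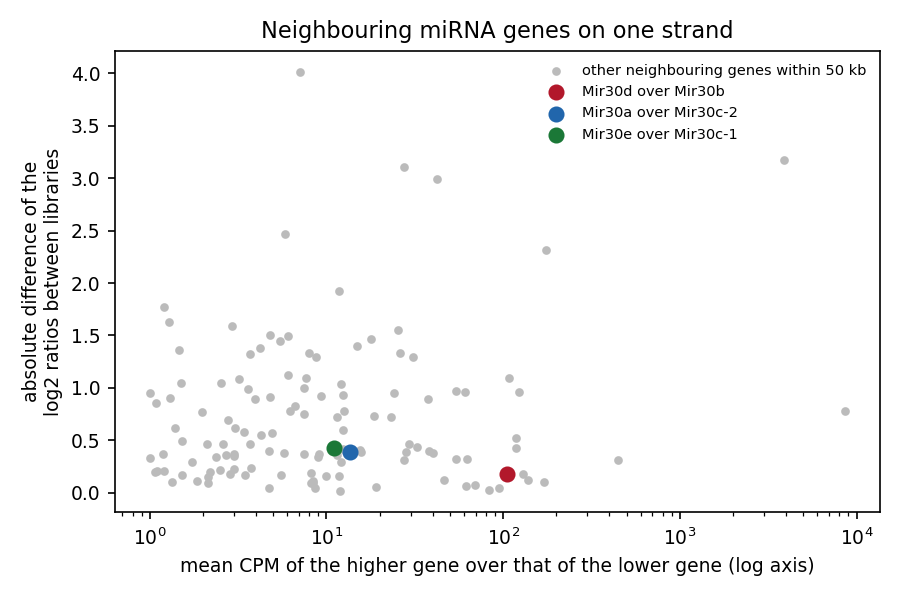
Absolute difference of the log2 ratios (y axis) against the fold between the mean CPM of the higher and the lower gene (x axis, logarithmic) for 129 neighbouring miRNA genes on one strand within 50 kb. The 3 miR-30 pairs (coloured) lie at 0.18 to 0.43 on the y axis, below the median of 0.47. That median is not matched for counts, since it takes in genes with as few as 10 counts over both libraries.

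By distance of log2(CPM + 1) values over the 2 libraries, the genes nearest to Mir30d were Mir23a (0.13) and Mir324 (0.23), and those nearest to Mir30a were Mir874 (0.03) and Mir434 (0.14). Mir676 (0.23) and Mir185 (0.30) were nearest to Mir30e, and Mir665 (0.16) and Mir7080 (0.18) to Mir30c-2. Mir500 (0.10) and Mir210 (0.11) were nearest to Mir30c-1, and Mir495 (0.12) and Mir16-1 (0.22) to Mir30b. With 2 libraries this distance describes level more than pattern.

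Marker miRNAs of the tissue were read beside the family. Reads aligned to several places enter no gene, and mature arms shared between markers were not searched. Low marker counts therefore need not mean low mature miRNA. Of 12 neuronal markers 9 were detected at 10 CPM in both libraries. Below that level were Mir124a-1 (6 and 8 counts in replicates 1 and 2), Mir124a-2 (2 and 0) and Mir124a-3 (5 and 5). The sum of the list, led by Mir132, was 49845 CPM in replicate 1 and 31795 CPM in replicate 2. Mir132 alone stood at 32072 and 14605 CPM, and of the 11 neuronal genes tested 4 passed as higher and 5 as lower, with a median log2 ratio of −0.12 against −0.65 for the sum. Markers of choroid plexus and ependyma (6 of 7 detected) summed to 11419 and 3470 CPM, with 5 of 7 genes passing as lower in replicate 2 and 1 as higher. The oligodendrocyte list (2 of 3) stood at 5817 and 8786 CPM, with 2 passing as higher. The endothelial and mural list (3 of 3) stood at 8456 and 8769 CPM, with 1 gene passing as higher and 2 as lower. Markers of microglia and leukocytes (3 of 6) stood at 2935 and 2632 CPM, with 3 passing as lower. Mir150 made up 72.9% and 74.0% of that sum, while Mir146b, Mir223 and Mir142 did not reach 10 CPM in both libraries. The astrocyte and progenitor list (1 of 3), made up of Mir9-1, Mir9-2 and Mir9-3, stood at 123 and 174 CPM. Its 1 gene passing as higher was Mir9-3, with 32 and 257 counts. This sum covers only reads aligned to 1 place and does not give a level of these cells. The red cell list (1 of 3) stood at 18.8 and 23.8 CPM. Mir124a-2 was at 0 in replicate 2 and Mir144 at 0 in replicate 1. The miR-30 sum stood at 17758 and 16115 CPM. The part of these markers' cells in the miR-30 differences was not tested, and in tissue RNA fewer cells of a type and less RNA per cell cannot be told apart.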

How the data were processed

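Small RNA from mouse hippocampus was measured in 2 libraries. Each library has 1 deposited table of raw counts of reads per miRNA gene, placed on mm10 with GENCODE M21 per the file headers. Aligner and counter were not given in the sources used here. Between the libraries, the version number of the adapter-trimming document cited in the labels differs. Of the 3 count columns, the one on the strand of the gene was used. Library sizes exclude the 4 summary rows, which held 61.8% and 60.1% of reads. Reads counted on miRNA genes numbered 4247092 in replicate 1 and 5041568 in replicate 2.

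CPM, exact (Clopper-Pearson) 95% intervals and exact binomial tests with Benjamini-Hochberg adjustment were computed with Python 3.11.15 and scipy 1.17.1. The test was used because 1 library against 1 leaves edgeR's quasi-likelihood test no residual degrees of freedom. TMM factors and the coefficient of variation came from edgeR 4.0.16 and size factors from DESeq2 1.42.0. Named genes were the members, genes sharing a seed with them, and the 2 nearest genes of each. Genes of other families beyond that rule were chosen after their values were seen. The members and lists were chosen with earlier results of these data known. Alternatives were other scalings, the strand column, the count minimum, the added count and leaving out each library.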

Additional observations from a re-analysis of the deposited data

Results flagged for a closer look

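The column of counts on the opposite strand, which no comparison used, holds 6183 counts for Mir30f in replicate 1 and 9073 in replicate 2, above the 3 counts that a count of 0 allows. These equal the counts of Mir30e on its own strand in each library, and Mir30f is annotated over the same bases of the other strand. The opposite-strand column was at 0 for all 6 miR-30 genes in both libraries.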

How the results depend on the processing

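The log2 ratios of Mir30a, Mir30b, Mir30d and Mir30e kept their direction and stayed past the threshold under every alternative run, except that Mir30e had no counts without regard to strand. Mir30c-1 passed at −0.20 with both TMM factors and DESeq2 size factors, and Mir30c-2 missed the threshold at 0.12 with DESeq2 size factors; these scalings shift all log2 ratios by −0.07 and −0.08. The number of miR-30 genes past the test ran from 4 without regard to strand, where Mir30e is missing, to 6 with TMM factors. That of all genes ran from 255 of 496 tested without regard to strand to 275 of 522 scaled to all reads. With no count minimum, 267 of 799 genes tested passed. The family share of 1.69% became 0.661% of all reads of a library and 2.004% of counts without Mir139, since the denominators differ. Without regard to strand the share of Mir30e within its pair was 0%, because its reads were counted for no gene. Leaving out 1 library gave family shares of 1.61 to 1.78%, and shares within the pair of 92.3 to 94.0% for Mir30a, 99.0 to 99.1% for Mir30d and 90.5 to 92.8% for Mir30e. The 50 kb distance between neighbours was chosen after seeing the data. No paired analysis was possible because there is 1 group. Depth limits Mir30b and Mir30c-1 most, as the widths of their intervals show.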
